A study of Mus musculus with 4 samples.

Results

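Cd200 and 9 other genes for surface or secreted molecules that restrain or tune immune cells were followed in 4 mouse mammary tumours. The members were named by gene: Cd200, Cd200r1, Cd47, Sirpa, Cd274, Pdcd1lg2, Cd276, Lgals9, Cd80 and Cd86. Every probe set of the array whose only annotated symbol was one of these was taken, which gave 21 of 45037 probe sets and 10 of 18193 genes. The tumours grew in nude mice, an athymic strain that lacks most mature T cells but keeps macrophages and NK cells, after transplantation of Eph4 cells, an established mouse mammary epithelial line. All the transplanted cells carried ETV6-NTRK3, a fusion oncogene in which a transcription factor gene is joined to the kinase part of a neurotrophin receptor gene. The 2 Eph_EN tumours came from cells with the fusion alone, and the 2 Eph_EN_DN tumours from cells that also expressed TAM67, a dominant negative c-Jun that blocks the AP-1 transcription factor. The promoter that drives either construct, the number of clones and the age of the mice are not given in the sources used here. Neither is whether same-group tumours arose from separate cultures or animals. The spread among the 4 tumours, from which limma's p-values come, may therefore be partly technical. limma also pools variance over all probe sets in the fit, so a p-value does not measure the spread of its own probe set alone.

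CD200 is a membrane glycoprotein of the immunoglobulin superfamily whose receptor, CD200R, sits mainly on myeloid cells and quietens them when bound. CD47 gives phagocytes an inhibitory signal through SIRPα, and the ligands encoded by Cd274 and Pdcd1lg2 (PD-L1 and PD-L2) restrain T cells through PD-1. CD80 and CD86 on antigen-presenting cells engage both the activating receptor CD28 and the inhibitory receptor CTLA-4, CD276 is a related B7 protein, and galectin-9, from Lgals9, is a ligand of TIM-3.

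The measure was a linear intensity for each probe set on each array, with array medians of 35.6 to 40.8 units. Differences are Eph_EN_DN minus Eph_EN after a log2(intensity + 16) transform (2 tumours in each group), and the standard error (SE) comes from limma, fitted over the 27022 probe sets left after the dimmest 40% were dropped. Of the 21 probe sets, 17 were left, and each gene kept at least 1. Because the genes were chosen with results of this same contrast known, above all that of Cd200, their differences are given as descriptions without a test. In whole tumours, fewer cells of a type and less RNA per cell cannot be told apart. The epithelial marker Krt8 was present in all 4 tumours (2048 and 2017 units in Eph_EN and 1596 and 1470 in Eph_EN_DN). So was the macrophage marker Csf1r (2341 and 2609, then 2129 and 1498). All differences also stood beside a 3' to 5' signal ratio of Gapdh of 0.938 and 1.04 in Eph_EN against 1.17 and 1.11 in Eph_EN_DN tumours, one of beta-actin of 1.11 and 1.19 against 1.31 and 1.34, and a mean 18S ribosomal RNA signal of 5.43 and 6.40 against 6.76 and 7.43 on the log2 scale. The groups did not overlap in any of these 3 measures of RNA quality, whose part in the results was not tested.

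Cd200 stood lowest of the members in the Eph_EN_DN tumours relative to Eph_EN. Its single probe set, 1448788_at, read 372 and 253 units in Eph_EN tumours 1 and 2 and 76.4 and 58.1 in Eph_EN_DN tumours 1 and 2. Both Eph_EN values were above both Eph_EN_DN values, and the lower Eph_EN value was 3.31 times the higher Eph_EN_DN value. The group means were 313 ± 84.5 (SD) and 67.3 ± 12.9 units, a 4.65-fold ratio, and the log2 difference was -1.96 ± 0.25 (SE). With 1 array left out in turn it lay between -2.23 and -1.70. Ordered from the most negative difference, Cd200 was number 9 of 13325 genes, each read by its brightest probe set. All 4 readings were above the array medians.

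The receptor gene Cd200r1 gave no such separation. Probe set 1422191_at read 43.7 and 30.1 units in Eph_EN and 59.7 and 34.4 in Eph_EN_DN tumours, with a difference of 0.24 ± 0.32. Probe set 1439703_at read 26.5 and 44.4 against 42.0 and 18.7 units, at -0.18 ± 0.41. The groups overlapped in both, each had 2 arrays below the array median, and the 2 probe sets differed in sign. A lone array turned either sign: the first was -0.057 without Eph_EN_DN tumour 1, and the second 0.19 without Eph_EN_DN tumour 2 and 0.078 without Eph_EN tumour 2. Cd200r4, a related receptor gene, differed by 0.089 ± 0.34 (limma adjusted p = 0.963).

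**Figure D1:**
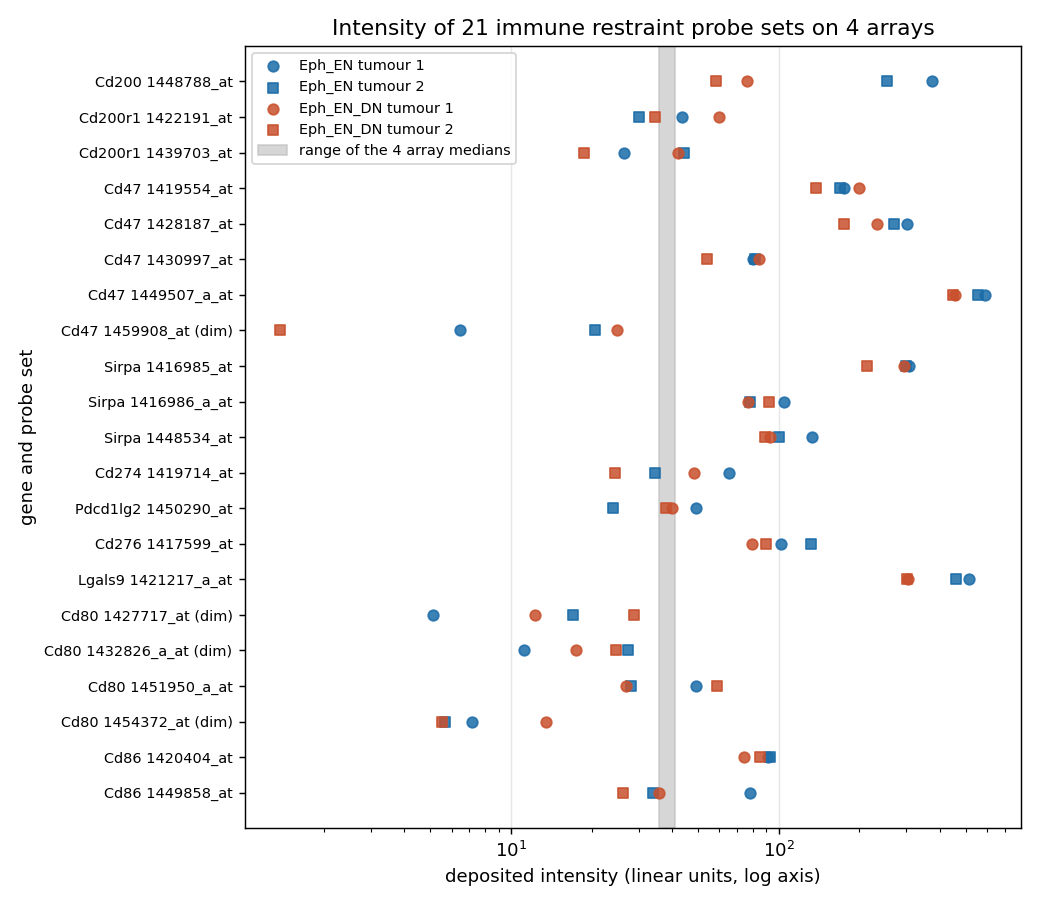
Deposited intensity in linear units on a log axis for all 21 probe sets, with 1 point for each array; circles are tumour 1 and squares tumour 2 of each group, blue is Eph_EN and red Eph_EN_DN, the grey band spans the 4 array medians (35.6 to 40.8), and "dim" marks the 4 probe sets left out of the fit. The Cd200 points of the groups lie far apart (253 and 372 against 58.1 and 76.4), those of Lgals9 lie apart by less, and those of Cd200r1, Cd274, Pdcd1lg2 and Cd80 are mixed.

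Promoter windows from 250 bases before to 50 after an annotated start were taken from RefSeq (GRCm38.p6), which gave 8 windows for 7 of the 10 genes; Cd200r1, Sirpa and Cd86 had none. Since TAM67 acts on AP-1, the AP-1 letters TGANTCA were searched on both strands, with the core of the interferon-stimulated response element, GAAANNGAAA, and the gamma-activated site TTCNNNGAA. The promoters of Cd200 and Lgals9 are shown because these genes had the 2 most negative differences of the members, and that of Cd80 because it held TGANTCA. Capitals mark matches, and each is printed 5′ to 3′ on the gene's strand.
Cd200, chr16:45409004-45409303, minus strand: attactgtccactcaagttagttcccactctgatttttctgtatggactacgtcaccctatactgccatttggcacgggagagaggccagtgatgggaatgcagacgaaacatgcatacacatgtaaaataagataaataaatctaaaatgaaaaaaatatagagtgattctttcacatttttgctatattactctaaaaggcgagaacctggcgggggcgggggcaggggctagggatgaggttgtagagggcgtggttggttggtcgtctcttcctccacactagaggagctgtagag
Lgals9, chr11:78984875-78985174, minus strand: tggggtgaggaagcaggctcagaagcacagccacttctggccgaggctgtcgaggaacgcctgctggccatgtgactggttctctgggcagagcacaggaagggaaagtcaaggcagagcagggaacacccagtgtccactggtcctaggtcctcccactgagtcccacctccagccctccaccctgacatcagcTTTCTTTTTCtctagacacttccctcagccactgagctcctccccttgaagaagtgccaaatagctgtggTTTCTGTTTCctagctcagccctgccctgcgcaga
Cd80, chr16:38458683-38458982, plus strand: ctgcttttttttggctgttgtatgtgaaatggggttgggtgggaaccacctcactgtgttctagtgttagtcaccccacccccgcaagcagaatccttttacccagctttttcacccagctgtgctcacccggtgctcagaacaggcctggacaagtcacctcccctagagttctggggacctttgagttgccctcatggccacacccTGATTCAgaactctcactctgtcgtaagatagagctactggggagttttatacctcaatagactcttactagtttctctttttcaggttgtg
The Cd200 window held none of the 3 motifs. Lgals9 held GAAANNGAAA on its opposite strand at 2 places, from base -55 to -46 and from base 16 to 25 counted from the start, and 3.44% of all 32851 promoter windows held this motif. Cd80 held TGANTCA from base -42 to -36, read as TGATTCA. With any middle base, 7.81% of all windows held these letters somewhere along their length. No member window held TGACTCA or TGAGTCA. No member window held TTCNNNGAA, which 8.3% of all windows held. The windows of Cd47, Cd274, Pdcd1lg2 and Cd276 held none of these letters. A match here is a string of letters and not a measured binding site.

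Lgals9, which encodes galectin-9, had the next most negative difference. Probe set 1421217_a_at read 516 and 458 units in Eph_EN and 304 and 300.1 units in Eph_EN_DN tumours. The groups did not overlap, and the values within a group lay close together. Means were 487 ± 40.8 (SD) and 302 ± 2.96 units, a 1.61-fold ratio, and the difference was -0.66 ± 0.21 (SE), from -0.74 to -0.57 with an array left out. Its receptor gene Havcr2 differed by 0.10 ± 0.24 (limma adjusted p = 0.928), with groups that overlapped.

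The probe sets of Cd47, the ligand that restrains phagocytosis, did not give a single picture. The brightest, 1449507_a_at, read 591 and 556 units in Eph_EN and 455 and 449 in Eph_EN_DN tumours (-0.33 ± 0.20), and 1428187_at read 303 and 270.0 against 233 and 175 (-0.47 ± 0.23). In both the groups did not overlap. In 1430997_at, with 80.1 and 81.6 against 84.7 and 54.1 units (-0.20 ± 0.24), and in 1419554_at, with 175 and 170 against 199 and 138 (-0.050 ± 0.23), the Eph_EN_DN tumours lay on either side of the Eph_EN pair. Without Eph_EN_DN tumour 2 these last probe sets were at 0.057 and 0.19. The fifth Cd47 probe set, 1459908_at, was below the array median on all 4 arrays (1.38 to 24.9 units) and was not tested.

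Sirpa, the receptor of CD47 on macrophages, showed the same kind of spread among its 3 probe sets. The brightest, 1416985_at, read 306 and 298 units in Eph_EN and 295 and 214 in Eph_EN_DN tumours (-0.25 ± 0.22), so that Eph_EN_DN tumour 1 lay just below the Eph_EN tumours. Probe set 1448534_at read 134 and 99.8 against 93.0 and 88.6 units (-0.30 ± 0.23), again without overlap but with a narrow gap. In 1416986_a_at, at 105 and 78.2 against 76.8 and 91.9 units (-0.093 ± 0.23), the groups overlapped, and the sign turned without Eph_EN tumour 1 (0.088) or Eph_EN_DN tumour 1 (0.016).

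The PD-1 ligand genes were dim. Cd274 (PD-L1, 1419714_at) read 65.2 and 34.6 units in Eph_EN and 48.3 and 24.4 in Eph_EN_DN tumours, a difference of -0.33 ± 0.34. Tumour 1 was the higher of each group, and on the log2 scale the tumours of a group lay 0.68 apart in Eph_EN and 0.67 apart in Eph_EN_DN. The difference was 0.0086 without Eph_EN tumour 1 and 0.0032 without Eph_EN_DN tumour 2. Pdcd1lg2 (PD-L2, 1450290_at) read 48.9 and 24.1 units against 40.04 and 37.9, with both Eph_EN_DN values between the Eph_EN values (0.11 ± 0.35, and -0.24 without Eph_EN tumour 2). No difference in either ligand was resolved beyond the spread between tumours.

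Among the B7 genes, Cd276 (1417599_at) read 102 and 132 units in Eph_EN and 79.3 and 89.5 in Eph_EN_DN tumours. These groups did not overlap, and the difference was -0.40 ± 0.23. Cd86 was read by 2 probe sets. In 1420404_at the values were 91.1 and 92.5 against 74.0 and 85.3 units, without overlap (-0.17 ± 0.22). In 1449858_at they were 78.1 and 33.9 against 35.8 and 26.3 (-0.55 ± 0.35), where Eph_EN tumour 1 stood alone and the difference without it was -0.091. Cd80 was dim: 3 of its 4 probe sets were below the array median on all arrays (5.11 to 28.7 units) and were not tested. The fourth, 1451950_a_at, read 49.2 and 28.1 units in Eph_EN and 26.9 and 59.0 in Eph_EN_DN tumours (0.080 ± 0.36), and its sign turned with each array centred on its median (-0.018).

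Read together, 14 of the 17 kept probe sets had negative differences, or 15 with each array centred on its median, where Cd80 turned, and 14 with quantile normalization. The count ran from 11, without Eph_EN_DN tumour 2, to 15, without Eph_EN tumour 2. The median difference was -0.25, against 0.041 over all 27022 kept probe sets. Relative to the Eph_EN mean, the member median stood at 0.083 and -0.083 in the Eph_EN tumours and at -0.26 and -0.34 in the Eph_EN_DN tumours. In 8 of the 17 the groups did not overlap with Eph_EN_DN lower, and in 0 with Eph_EN_DN higher; over all kept probe sets these shares were 18.1% and 21.7%, or 39.8% in either direction. The limma fit over all probe sets put 1 of the 17, Cd200, under an adjusted p of 0.05, where the share over all kept probe sets was 0.226% (0.17% lower and 0.0555% higher). When the variance model took no trend on intensity, 0 probe sets were under it and 2129 had an unadjusted p under 0.05. These counts describe genes picked with this contrast known, Cd200 above all, so they are no test and nothing is read from them.

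**Figure D2:**
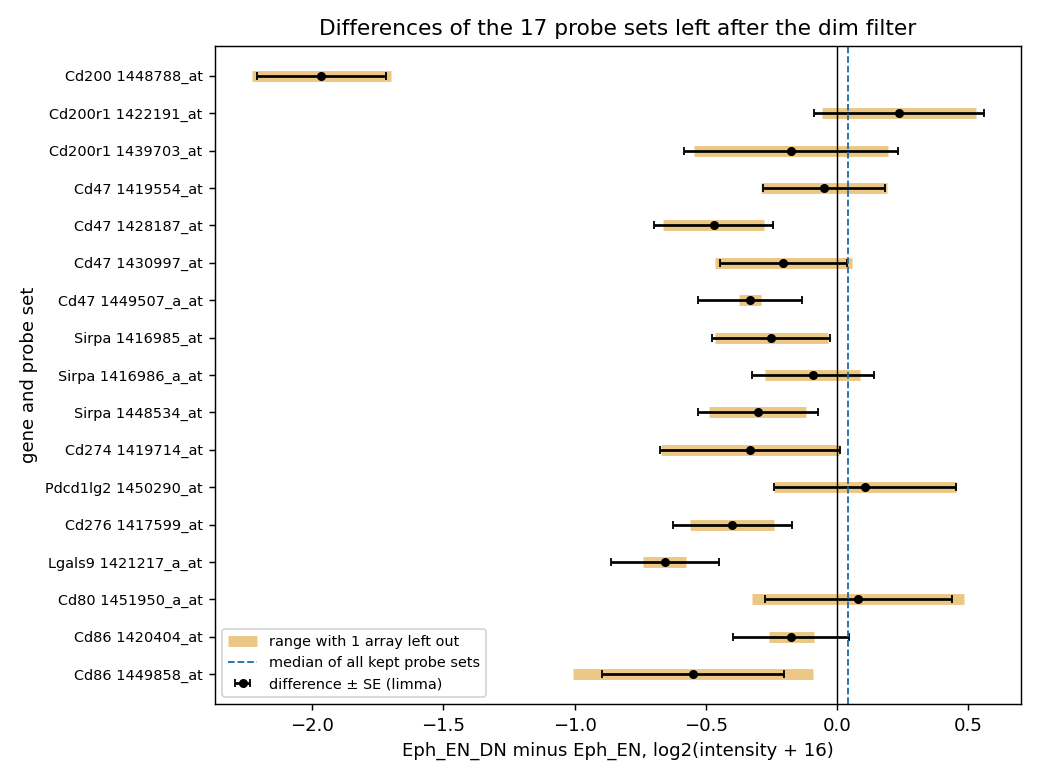
Difference Eph_EN_DN minus Eph_EN on the scale log2(intensity + 16) for the 17 kept probe sets; points are limma estimates with bars of 1 SE, orange bands span the values with each of the 4 arrays left out in turn, and the dashed line is the median of all kept probe sets (0.041). Cd200 lies at -1.96, Lgals9 at -0.66, and the bands of 8 probe sets, among them those of Cd274, Pdcd1lg2 and Cd80, cross 0.

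Markers of the host cells that carry these molecules were read beside them, each gene by its brightest probe set and dim ones included. All 14 macrophage markers were on the array, their summed intensity was 21323 and 17668 units in Eph_EN and 14305 and 11644 in Eph_EN_DN tumours, and 8 of the 14 did not overlap between groups, all lower in Eph_EN_DN, where 18.1% of all kept probe sets were. None of the 14 passed limma's threshold (lowest adjusted p = 0.0784, Lyz2). Their median difference was -0.49, beside -0.25 for the brightest Sirpa probe set, -0.17 for that of Cd86 and 0.24 for that of Cd200r1. The 9 endothelial markers, a cell type that also carries CD200, summed to 546 and 756 against 412 and 499 units, with 4 lower without overlap, a median of -0.32 and 5 of the 9 kept after the dim filter; the defining marker Pecam1 was dim in all tumours (26.1 and 20.6 against 13.1 and 12.5 units). The 4 nerve markers measured summed to 403 and 455 against 265 and 272 units, at a median of -0.56. Fibroblast markers (9) summed to 19048 and 25894 against 17028 and 14707 units, with 7 lower and 1 higher without overlap and a median of -0.71. Over all kept probe sets 18.1% were lower and 21.7% higher without overlap. The same shares stand beside the endothelial and adipocyte counts, though those lists also hold dim markers that were not kept. Adipocyte markers (7 measured, 5 kept) summed to 552 and 352 against 1400.0 and 6044 units, with 4 higher without overlap and a median of 1.59. Car3 of this list passed limma's threshold (3.36, limma adjusted p = 0.00488), and Fabp4 did not (2.47, limma adjusted p = 0.0501). Lymphocyte and NK markers summed to 489 and 413 against 391 and 440 units, so that the groups overlapped. Of the 9 measured, 4 were below the array median on all arrays, while Cd3e (102 and 78.8 against 131 and 124 units), Cd4 (89.9 and 104 against 61.1 and 72.0) and Cd8a (106 and 129 against 93.0 and 88.8) were above it on all. The genes of the other CD3 chains were dim and not kept: Cd3d read 29.2 and 19.5 against 12.8 and 21.3 units. Cd3g read 60.4 and 6.48 against 6.9 and 23.4. Their differences were -0.29 and -0.46, opposite in sign to that of Cd3e (0.44). Dendritic cell markers (8 measured) summed to 342 and 322 against 305 and 368, and epithelial markers (8) to 3474 and 3718 against 2843 and 3130. Of the 8 epithelial markers 5 were negative, at a median of -0.15, while Krt14 (0.67), Cldn4 (0.46) and Cdh1 (0.155) were positive. Krt19 was dim in all tumours (10.3 and 10.8 against 3.41 and 15.8 units). Neutrophil markers (5 measured) summed to 301 and 279 against 311 and 169, lymphatic endothelial markers (4) to 263 and 431 against 374 and 320.5, and skeletal muscle markers (7) to 152 and 189 against 283 and 313. Most of the muscle difference in sum lay in Myh1 (39.0 and 59.6 against 142 and 163 units), which passed limma's threshold (1.385, limma adjusted p = 0.0254). The median of the muscle list was 0.13, and 4 of its 7 markers were below the array median on all arrays. None of the values in these 11 lists was exactly 0. The part of any of these cell types in the Cd200 or Lgals9 difference was not tested.

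The genes whose profile over the 4 arrays was nearest to that of Cd200 were sought among 13324 others, by the Euclidean distance between log2 values centred on each gene's mean. The nearest was Irgm2, an interferon-inducible GTPase, at a distance of 0.16, with 268 and 178 units in Eph_EN and 60.9 and 40.5 in Eph_EN_DN tumours. Then came Gbp6, a guanylate-binding protein (distance 0.31; 249 and 170 against 62.0 and 47.2 units), and Ibsp, which encodes bone sialoprotein (0.49; 133 and 66.3 against 29.7 and 11.6). Igtp, another interferon-inducible GTPase, was at 0.53 (987 and 554 against 288 and 227 units) and Cd74, the invariant chain of MHC class II, at 0.54 (4511 and 2638 against 1267 and 1187). In all 5, as in Cd200, Eph_EN tumour 1 was the highest and Eph_EN_DN tumour 2 the lowest. The differences of these genes ran from -1.83 for Irgm2 to -1.48 for Igtp and Cd74. They were picked for this likeness on 4 arrays, so no test is given.

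**Figure D3:**
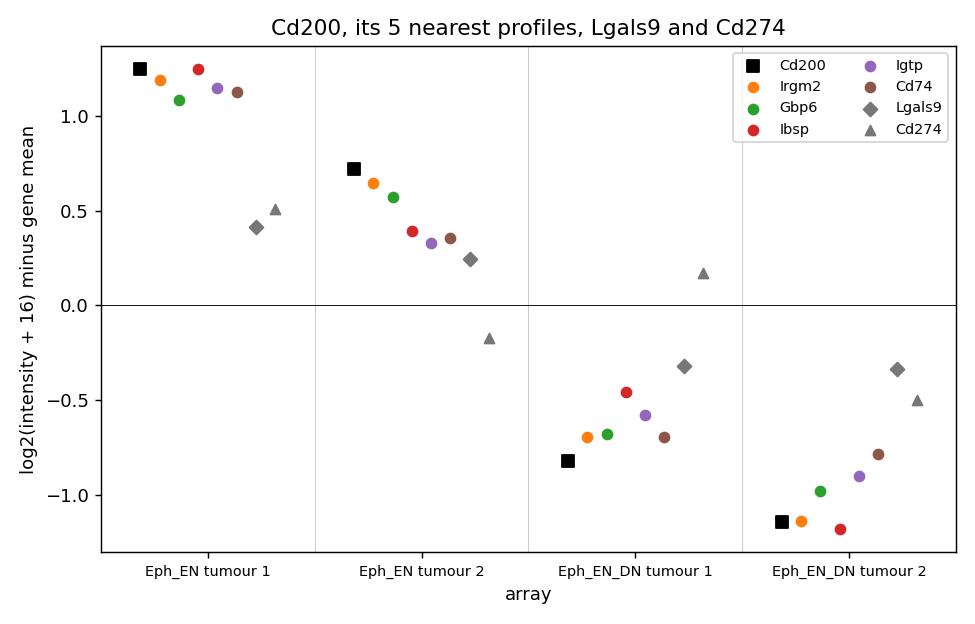
Log2(intensity + 16) minus the mean of each gene over the 4 arrays, for Cd200 (black squares), the 5 genes with the nearest profiles (coloured points), Lgals9 (grey diamonds) and Cd274 (grey triangles), with the array on the horizontal axis and genes set side by side within an array. Irgm2 follows Cd200 most closely (distance 0.16), Lgals9 has the same order of groups with a smaller difference (-0.66), and Cd274 is higher in tumour 1 of each group.

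Other genes of these pathways were read from 7 lists of 68 genes, of which 54 were tested through their brightest kept probe set. By limma 0 of the 54 rose and 0 fell at an adjusted p under 0.05, where 0.255% of all genes read this way passed (0.0525% higher and 0.203% lower). At an unadjusted p under 0.05 there were 13 of the 54, beside 9.22% of all genes. Negative differences were found in 38 of the 54, with a median of -0.13. This count of 0 moved with the processing: Irf7 passed when the fit was limited to 1 probe set a gene, Irf7 and Nt5e with no filter on dim probe sets, Nt5e without Eph_EN tumour 1, and Irf7 and Thbs1 without Eph_EN tumour 2.

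Of 11 genes on the interferon route that induces Cd274, 10 were negative, with a median of -0.42, 0 past the adjusted threshold and 6 at an unadjusted p under 0.05. Over all genes read this way 9.22% were at such a p. Irf7, a transcriptional activator of type I interferon genes, read 278 and 170 units in Eph_EN and 75.6 and 104 in Eph_EN_DN tumours (-1.16 ± 0.26, limma adjusted p = 0.0964). An earlier result of these data was known for Irf7, which is among the 6, when the list was written. Irf9, the DNA-binding subunit of the complex that acts below type I interferon receptors, read 100.4 and 90.3 against 51.3 and 35.0 units (-0.93 ± 0.24, limma adjusted p = 0.19). In both the groups did not overlap. Cd274 itself was at -0.33, with groups that did.

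Genes of soluble and enzymatic restraint were negative in 5 of 5 by their brightest probe sets, with a median of -0.73. Of these, 0 were past the adjusted threshold and 3 at an unadjusted p under 0.05, where 9.22% of all genes were. The median was the value of Tgfb1, whose other kept probe set had the opposite sign. An earlier result of these data was known for Tgfb1 when the list was written, so these counts are no fresh test. Nt5e encodes CD73, the ectoenzyme that makes adenosine. Its brightest probe set read 1228 and 1626 units in Eph_EN and 830 and 679 in Eph_EN_DN tumours (-0.90 ± 0.20, limma adjusted p = 0.0911). The probe sets of the gene disagreed: a dimmer one, 1422974_at, fell from 331 and 276 to 87.0 and 97.8 units (-1.56 ± 0.22, limma adjusted p = 0.00779), and 1459023_at was at 0.63 ± 0.37. Arg1, arginase of myeloid cells, read 67.8 and 97.5 against 37.2 and 41.5 units (-0.82 ± 0.25, limma adjusted p = 0.304).

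Inhibitory receptors of myeloid cells and the ligand Cd24a showed values of both signs (8 tested, 6 negative, median -0.20). Of these, 0 were past the adjusted threshold and 2 at an unadjusted p under 0.05, beside 9.22% of all genes. Pirb, an inhibitory receptor for MHC class I, read 84.9 and 79.7 units in Eph_EN and 37.1 and 36.4 in Eph_EN_DN tumours (-0.90 ± 0.24, limma adjusted p = 0.211). Cd24a, whose product binds an inhibitory Siglec, read 373 and 388 against 504 and 702 units (0.62 ± 0.22, limma adjusted p = 0.371), and all 3 of its probe sets were higher without overlap. Among the phosphatases and adaptors below such receptors, 6 of 7 were negative (median -0.16, 0 past the adjusted threshold and 0 at an unadjusted p under 0.05). The largest values were those of the kinase gene Csk (-0.36 ± 0.22) and the adaptor gene Dok1 (-0.29 ± 0.22).

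Partners of the B7 and CD28 family had a median of 0.0065 (9 tested, 4 negative, 0 past the adjusted threshold, 1 at an unadjusted p under 0.05). For this and the next 2 lists, the share of all genes at such a p was 9.22%. Tnfrsf14, the ligand of BTLA and CD160, read 26.4 and 28.2 units in Eph_EN and 53.4 and 62.3 in Eph_EN_DN tumours (0.77 ± 0.30, limma adjusted p = 0.446), and Cd160 was at -0.49 ± 0.44. Tim, nectin and related checkpoint genes had a median of 0.10 (9 tested, 4 negative, 0 past the adjusted threshold, 1 at an unadjusted p under 0.05), with Cd96 at 0.56 ± 0.36 and Cd226 at 0.50 ± 0.55. Cd226 was at -0.43 without Eph_EN tumour 2, where it had read 3.13 units. Of the partners of CD47, 3 of 5 were negative (median -0.0067, 0 past the adjusted threshold, 0 at an unadjusted p under 0.05). Thbs1, which encodes the CD47 ligand thrombospondin 1, read 393 and 134 units against 166 and 122 (-0.65 ± 0.35), and was at 0.079 without Eph_EN tumour 1 and -1.37 without Eph_EN tumour 2. Qpctl, the enzyme that modifies the SIRPα binding site of CD47, was at 0.38 ± 0.23 in its brightest probe set, with the other 2 at 0.049 and -0.043.

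**Figure D4:**
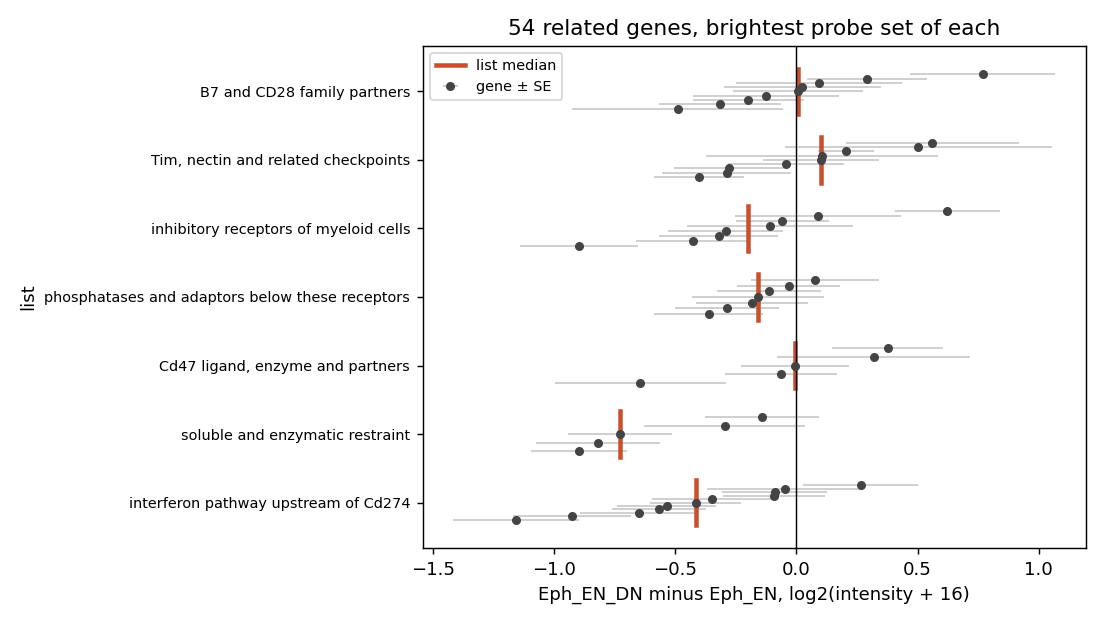
Difference Eph_EN_DN minus Eph_EN on the scale log2(intensity + 16) for the 54 related genes tested, in 7 lists; points are genes with bars of 1 SE from limma and red lines are list medians. The lists of soluble restraint (median -0.73) and of the interferon route (-0.42) lie left of 0, and the B7 and CD28 partners are centred near it (0.0065). Each gene is shown by its brightest probe set, and none of these passed the adjusted threshold.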

How the data were processed

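Tumour RNA was isolated with Trizol, cleaned on columns and hybridised as biotin-labelled cRNA to 1 Affymetrix array a tumour, per the labels. The authors deposited a linear intensity for each of 45037 probe sets and 64 controls; their summary, background correction and scaling are not given in the sources used here. No detection call was used. With 4 arrays, precision is limited by their number. Gene names came from the platform annotation, checked by Entrez ID against RefSeq (GRCm38.p6).

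Controls and the dimmest 40% of probe sets were left out. Each kept probe set was tested two-sidedly on log2(intensity + 16), which understates folds of dim genes, with limma 3.58.1 in R 4.3.3 (lmFit, then eBayes with a trend on intensity; Benjamini-Hochberg adjustment over all 27022). In data simulated for these probe sets with normal noise, the changed ones were drawn from those brighter than the median kept probe set. Of these, 66% of 100 changed 2-fold and 99% of 100 changed 4-fold were called, with 20 unchanged ones. Recovery among dimmer probe sets was not measured.

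Members and lists were chosen with earlier results of these data known, for the related genes those of Irf7 and Tgfb1. The p-value of Irf7 and the list counts that hold either gene are therefore no fresh test. Named genes were all members, from each list those past the threshold or else the 2 with the largest difference, and the 5 profiles nearest to Cd200; Havcr2, Cd200r4 and the single markers were named after their values were seen. Tigit, Lilrb4a, Clec12a, Cd200r2, Lyn and Sirpb1b, which had no single-symbol probe set in the tables used, were among the listed genes not analysed here. Alternatives were other filters, scalings, pseudocounts, probe set rules and variance models, the replicate block and each array left out. Figures were drawn with matplotlib.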

Additional observations from a re-analysis of the deposited data

How the results depend on the processing

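The Cd200 difference, a description since the gene was chosen on this contrast, ran from -2.23 to -1.51 over the 15 alternatives. It was -1.96 both without the intensity trend, where limma called 0 probe sets and 2129 had an unadjusted p under 0.05, and with the replicate block, where 4 were called; Cd200 was not among those called in either. Nothing ties equal tumour numbers together, and deviations of same-numbered tumours correlated at -0.038. Over all kept probe sets 61 passed, against 151 without the dim filter, 38 with each array centred on its median and 55 to 373 with an array left out (373 without Eph_EN tumour 2 and 167 without Eph_EN tumour 1). Of the related genes, each read by its brightest probe set, 0 passed, against 2 with no filter and 1 with the fit limited to the brightest probe set of each gene. A dimmer probe set of Nt5e, 1422974_at, did pass. The member median of -0.25 was -0.35 with centring and -0.34 to -0.18 with an array left out. Of the 17 kept member probe sets, 9 kept their sign throughout and 8 did not. Centring turned Cd80 (-0.018). With an array left out, the values ran from -0.057 to 0.53 for Cd200r1 1422191_at, -0.55 to 0.19 for Cd200r1 1439703_at, -0.29 to 0.19 for Cd47 1419554_at, -0.47 to 0.057 for Cd47 1430997_at, -0.27 to 0.088 for Sirpa 1416986_a_at, -0.67 to 0.0086 for Cd274, -0.24 to 0.45 for Pdcd1lg2, -0.32 to 0.48 for Cd80, -0.43 to 0.66 for Cd226 and -1.37 to 0.079 for Thbs1. The cause of these changes was not tested. With an array left out, the variance of its group rests on the 2 tumours of the other group, which the lone one is taken to share.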
